A study of Mus musculus with 189 samples.

Results

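Kdm2a, Kdm2b, Jhdm1d, Phf2 and Phf8 encode the KDM2 and KDM7 histone demethylases, and they are 5 of 192 qPCR assays, of which 36 failed, run on mouse oocytes and preimplantation embryos. They were taken by name, as the 2 KDM2 genes and 3 KDM7 genes on the panel, and not by their values. None of the 5 was among the failed assays, so all 5 were analysed. Jhdm1d is the older symbol of Kdm7a.

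The 168 samples analysed were single MII oocytes (mature unfertilized eggs), single zygotes, single blastomeres, small groups of blastomeres and whole embryos. They came from superovulated F1 females (C57BL/6 x DBA/2), which were mated to C57BL6 males where embryos were collected. Embryos grew in KSOMaa medium in low oxygen, and no group carried a mutation or a drug treatment. Lysates were converted to cDNA and the targets preamplified in the same tube before the qPCR. Samples of one embryo were averaged, which left 58 units: 11 MII oocytes, 14 zygotes, and 8, 3, 6, 7, 2 and 7 embryos of the 2-, 3-, 4-, 8-, 16- and 32-cell stage. One of the 8 units of the 2-cell stage pools 11 blastomeres whose embryos are not named. The labels name no animals, so p-values measure the spread between these units.

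KDM2A and KDM2B share a JmjC demethylase domain that acts on methylated lysine 36 of histone H3, and a CXXC zinc finger that binds unmethylated CpG dinucleotides. KDM2B is known for bringing a variant Polycomb complex, with PCGF1 and RING1 or RNF2, to CpG islands. The KDM7 proteins join a PHD finger, which reads trimethylated lysine 4 of histone H3, to a JmjC domain. KDM7A, the product of Jhdm1d, removes dimethyl marks from lysines 9 and 27 of histone H3, PHF8 acts on lysine 9 of H3 and lysine 20 of H4, and PHF2 is linked to lysine 9 of H3.

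The 3 KDM7 genes are described together below, and the 250 bases before their annotated starts are shown because Jhdm1d and Phf8 both fell from the oocyte to the blastocyst while their promoters differ in CpG content. The RefSeq table used here matched 4 of the 5 genes, Jhdm1d through Kdm7a. The sequences are from RefSeq on the GRCm38.p6 build, run 5′ to 3′ along the gene, and carry each CG dinucleotide in capitals. Kdm7a (Jhdm1d) lies on the minus strand, chr6:39206774-39207023, Phf2 on the minus strand, chr13:48870886-48871135, and Phf8 on the plus strand, chrX:151520422-151520671.
Kdm7a: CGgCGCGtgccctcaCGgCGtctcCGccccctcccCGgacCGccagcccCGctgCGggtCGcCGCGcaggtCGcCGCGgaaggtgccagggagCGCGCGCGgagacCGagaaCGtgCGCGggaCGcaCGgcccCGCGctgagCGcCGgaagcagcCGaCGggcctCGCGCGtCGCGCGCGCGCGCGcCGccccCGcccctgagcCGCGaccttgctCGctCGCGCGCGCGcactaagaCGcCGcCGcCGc
Phf2: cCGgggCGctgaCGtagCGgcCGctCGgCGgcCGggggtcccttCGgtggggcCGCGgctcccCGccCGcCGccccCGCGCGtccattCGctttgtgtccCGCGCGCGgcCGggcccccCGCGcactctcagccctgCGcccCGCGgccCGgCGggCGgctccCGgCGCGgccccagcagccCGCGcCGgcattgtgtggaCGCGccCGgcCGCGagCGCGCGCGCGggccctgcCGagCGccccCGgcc
Phf8: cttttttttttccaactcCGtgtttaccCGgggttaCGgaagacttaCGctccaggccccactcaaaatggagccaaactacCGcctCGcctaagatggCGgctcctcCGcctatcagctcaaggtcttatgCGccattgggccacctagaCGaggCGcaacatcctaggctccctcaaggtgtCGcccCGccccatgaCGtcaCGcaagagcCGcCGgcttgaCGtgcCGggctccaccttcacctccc
The window held 56 CG in Kdm7a, 50 in Phf2 and 19 in Phf8. Of 32851 annotated promoter windows of this length, 2 held at least 56 CG, 31 held at least 50 and 6482 (19.7%) held at least 19. This is a description of letters and was not tied to the measured levels by any test.

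Levels are given as 30 minus the cycle threshold (Ct), less the mean of the same quantity for the control genes Hnrnpr, Ssu72 and Ube2e1. They are on a log2 scale, where a difference of 1 is a doubling if the PCR is fully efficient, and are compared between stages of one gene only. A Ct of 30 marks a gene as not detected, and its level then depends on the control genes of that sample. The median control Ct of a stage rose from 12.9 in MII oocytes to 17.7 in 32-cell samples. The oocyte genes Dazl and ZP3 were detected in all 11 MII oocytes. The trophectoderm gene Cdx2 was detected in all 26 samples of the 16-cell stage and not in 16 of 50 samples of 32-cell embryos. Gata3 was likewise detected in all 26 and not in 24 of the 50. Other trophectoderm genes differed. Dppa1, Id2 and Tspan8 were not detected in 8, 6 and 6 of the 26 and in 23, 16 and 28 of the 50. Krt8, Lats2 and Tead4 were detected in every sample of both stages. Stages were compared with limma on the 58 unit means, with p-values adjusted by Benjamini-Hochberg over all retained genes.

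All 5 genes were lower in 16- and 32-cell embryos than in MII oocytes, but by very unequal amounts. Jhdm1d fell by 5.11 ± 0.20 (SE, 11 oocytes and 9 embryos, adjusted p = 2.53e-29) and Phf8 fell by 4.12 ± 0.27 (adjusted p = 6.09e-20) on the log2 scale. Kdm2b fell by 2.01 ± 0.24 (adjusted p = 9.63e-11). Kdm2a fell by 0.45 ± 0.21 (adjusted p = 0.0414) and Phf2 by 2.44 ± 1.04 (adjusted p = 0.0278). Of all retained genes, 46.2% were lower and 37.8% were higher in this comparison, and their median difference was -0.35. The calls of Jhdm1d, Phf8 and Kdm2b were kept in all 16 alternative settings. Kdm2a was called in 11 and Phf2 in 12 of the 16. Kdm2a lost its call without Ssu72 among the control genes, where its difference was 0.036, and both Kdm2a and Phf2 lost theirs without either of the 2 embryos of the 16-cell stage. Phf2 also lost its call without Ssu72, at -1.96 (adjusted p = 0.0874), and with undetected values left out, at -0.80 (adjusted p = 0.101).

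**Figure D1:**
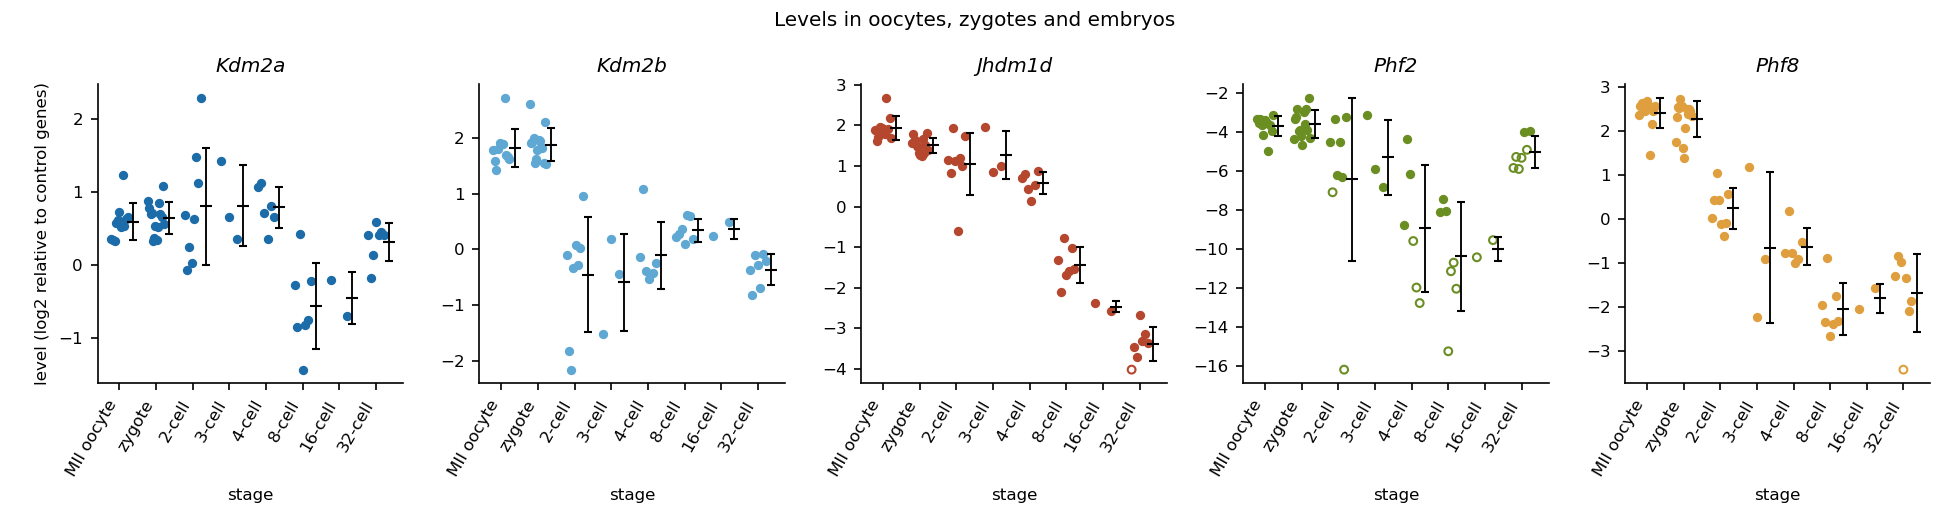
Levels of the 5 genes (log2 relative to the control genes) by stage. Each point is an oocyte, zygote or embryo mean, open where at least 1 of its samples had no signal, and the black marks give the mean and SD. Jhdm1d steps down from 1.93 to -3.38, while Phf2 dips to -10.38 in 8-cell and stands at -5.01 in 32-cell embryos.

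From MII oocytes to zygotes, none of the 5 genes passed the limma test, and 1 of them had an unadjusted p under 0.05. Among all retained genes, 0.641% were higher and 1.28% were lower. The one with a low unadjusted p was Jhdm1d, which differed by -0.42 ± 0.17 (adjusted p = 0.195). From zygotes to 2-cell embryos 4 of the 5 genes fell and none rose, against 39.1% lower and 29.5% higher among all genes. Without Hnrnpr among the control genes, 3 fell and 1 rose, since Jhdm1d lost its call and Kdm2a was higher by 0.58 (adjusted p = 0.0222). From 2-cell to 4-cell embryos 1 gene, Phf8, fell, against 25.6% lower and 7.05% higher. From 4-cell to 8-cell embryos 3 of the 5 fell, against 35.9% lower and 13.5% higher. From 8-cell to 16-cell embryos 1 gene, Jhdm1d, fell, where 8.33% of genes were lower and 19.9% higher. From 16-cell to 32-cell embryos none passed, 3 had an unadjusted p under 0.05, and 1.92% of genes were lower and 8.97% higher. Neighbouring comparisons share the embryos of the stage between them.

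Kdm2a, an H3K36 demethylase, had the smallest late difference of the 5 genes and was detected in every sample. Its unit values ran from 0.32 over a median of 0.57 to 1.23 in MII oocytes and from 0.33 over 0.67 to 1.09 in zygotes. In 4-cell embryos they ran from 0.35 over 0.76 to 1.12. These 3 stages overlapped throughout. Among the 2-cell units, 3 whole embryos had 1.12, 1.48 and 2.29, and the 5 units labelled as blastomeres ran from -0.07 to 0.68. For samples in 3 of these 5 units the labels leave unclear how many cells they held, so the effect of cell number was not tested. The difference of 0.16 ± 0.20 from zygotes to 2-cell embryos did not pass the test (adjusted p = 0.459). In 8-cell embryos the values were -1.43 at the lowest, -0.75 at the median and 0.42 at the highest, so 1 embryo reached the range of the 4-cell stage. Between the 4- and 8-cell stages Kdm2a fell by 1.35 ± 0.25 (adjusted p = 6.79e-06). The 2 embryos of the 16-cell stage had -0.70 and -0.20, and the 7 of the 32-cell stage ranged from -0.18 over 0.41 to 0.59. The difference of 0.77 ± 0.35 between these stages did not pass the test (adjusted p = 0.187). In the order of stage means, from 3-cell over 2-cell, 4-cell, zygote and MII oocyte to 32-cell, neighbours overlapped within mean ± 1 SD, and the 32-cell stage lay above the 16- and 8-cell stages without such overlap.

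Kdm2b, the Polycomb-linked paralogue, changed at a different point. MII oocytes ranged from 1.42 over 1.78 to 2.71 and zygotes from 1.53 over 1.86 to 2.59. In 2-cell embryos the lowest unit was at -2.15, the median at -0.19 and the highest at 0.95, so no 2-cell unit reached the zygotes. Kdm2b fell by 2.32 ± 0.23 (adjusted p = 1.09e-12), and this was called in all 17 alternative settings. After that step the means stayed between -0.59 in 3-cell and 0.36 in 16-cell embryos. No later comparison of neighbouring stages passed the test. The 4-cell embryos ranged from -0.54 over -0.31 to 1.08, the 8-cell embryos from 0.10 over 0.28 to 0.61, the 16-cell embryos had 0.24 and 0.49, and the 32-cell embryos ranged from -0.81 over -0.28 to -0.08. In the order of means only MII oocytes and their next neighbour, the 16-cell stage, did not overlap within mean ± 1 SD.

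Because the difference between 2 Ct values of one sample holds no control gene, the ratio of the paralogues does not depend on the normalization. Kdm2a minus Kdm2b was -1.22 ± 0.16 (SD, n = 11) in MII oocytes and -1.23 ± 0.23 (n = 14) in zygotes. It was 1.25 ± 0.69 (n = 8) in 2-cell and 0.89 ± 0.44 (n = 6) in 4-cell embryos. It then stood at -0.90 ± 0.61 (n = 7) in 8-cell embryos, at -1.19 and -0.44 in the 2 embryos of the 16-cell stage and at 0.68 ± 0.27 (n = 7) in 32-cell embryos. The 2-cell units did not overlap with the zygotes, nor the 32-cell units with the 16-cell embryos. The late samples outside these units gave -0.56, -0.54 and -0.29 in 3 whole 16-cell embryos and -0.33, 0.57 and 0.48 in 3 whole 32-cell embryos. An isolated group of inner cell mass cells had -0.62 and one of trophectoderm cells -0.40, so 3 of these 5 samples of the 32-cell stage were below 0 like the 16-cell stage. Tested among all 12090 pairs of genes with limma, the change was 2.48 ± 0.23 from zygotes to 2-cell embryos (adjusted p = 8.7e-14), -1.79 ± 0.29 from 4-cell to 8-cell embryos (adjusted p = 1.19e-06) and 1.49 ± 0.42 from 16-cell to 32-cell embryos (adjusted p = 0.0133). Without one of the 2 embryos of the 16-cell stage the last change was 1.87 (adjusted p = 0.0436), and without the other, the one at -1.19, it was 1.11 and did not pass (adjusted p = 0.33). The sign itself carries no meaning for the relative abundance of the 2 transcripts, since no sample held known amounts of them. In 2 dilution series of embryonic stem cell RNA, given below, the Ct changed by -1.04 and -1.29 per doubling for Kdm2a and by -0.85 and -1.03 for Kdm2b. The size of the difference can therefore also move with the amount of template, which was not tested.

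**Figure D2:**
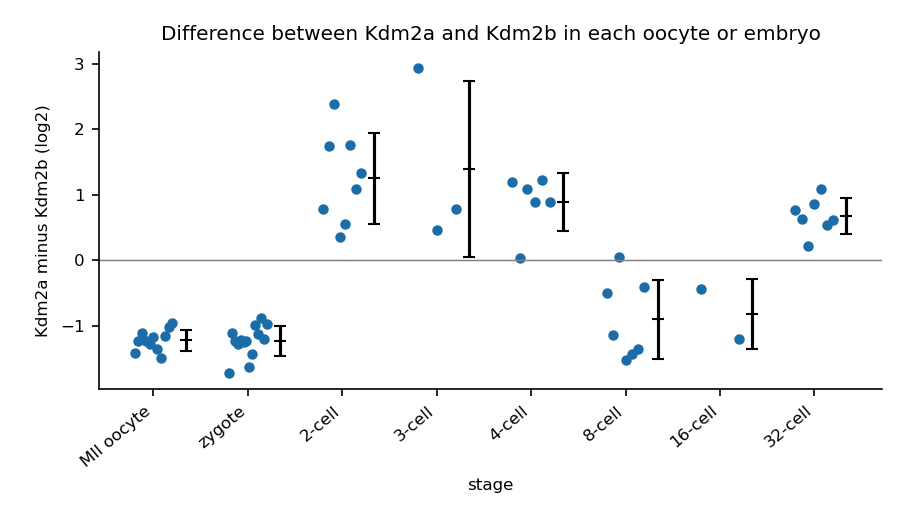
Difference between Kdm2a and Kdm2b (log2, 30 minus Ct of Kdm2a less that of Kdm2b) in each oocyte, zygote or embryo by stage, with the mean and SD in black. MII oocytes and zygotes lie near -1.2, 2-cell embryos near 1.25, 8-cell embryos near -0.90 and 32-cell embryos near 0.68.

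Of the 12090 pairs, 72.27% changed from zygotes to 2-cell embryos, 47.2% from 4-cell to 8-cell and 11.09% from 16-cell to 32-cell embryos, beside 1.58% from MII oocytes to zygotes, 23.3% from 2-cell to 4-cell, 21.94% from 8-cell to 16-cell embryos and 82.23% from MII oocytes to 16- and 32-cell embryos. Within the families, 4 pairs were followed over 7 comparisons, and 10 of these 28 tests passed. Kdm2a minus Kdm2b rose by 1.56 ± 0.26 from MII oocytes to the late embryos (adjusted p = 3.89e-07). Jhdm1d minus Phf8 rose by 1.56 ± 0.30 from zygotes to 2-cell embryos (adjusted p = 9.59e-06) and was 0.98 ± 0.31 lower in late embryos than in MII oocytes (difference -0.98, adjusted p = 0.00388). From 4-cell to 8-cell embryos that difference changed by -0.61 ± 0.38 and did not pass (adjusted p = 0.193). In 2 dilution series of embryonic stem cell RNA, given below, the Ct changed by -0.85 and -1.01 per doubling for Jhdm1d. For Phf8 it changed by -1.42 and -1.16. A difference between 2 genes can therefore also move with the amount of template. The median control Ct was 13.0 in zygotes and 16.3 in 2-cell samples, and its part in these changes was not tested. Between 16- and 32-cell embryos Phf2 minus Phf8 rose by 4.85 ± 1.64 (adjusted p = 0.0443) and Jhdm1d minus Phf2 fell by 5.88 ± 1.73 (adjusted p = 0.0184). Phf2 was not detected in 13 of 26 samples of the 16-cell stage, and since their Ct is fixed at 30 the size of both changes depends on that limit. With undetected values left out they were 1.79 (adjusted p = 0.0881) and -2.98 (adjusted p = 0.00774). Without either of the 2 embryos of the 16-cell stage neither passed, at 4.64 and 5.05 for Phf2 minus Phf8 (adjusted p = 0.311 and 0.226) and at -5.34 and -6.42 for Jhdm1d minus Phf2 (adjusted p = 0.242 and 0.119).

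Jhdm1d, whose product removes H3K9 and H3K27 dimethylation, declined in steps. MII oocytes ranged from 1.62 over 1.88 to 2.69, zygotes from 1.25 over 1.51 to 1.82 and 4-cell embryos from 0.15 over 0.62 to 0.87. The 8-cell embryos lay between -2.10 and -0.78 with a median of -1.54, below every 4-cell embryo, and the gene fell by 2.02 ± 0.24 (adjusted p = 4.03e-10). The 16-cell embryos had -2.56 and -2.37, and the 32-cell embryos ranged from -4.02 over -3.36 to -2.67. Neither of these groups of units overlapped with the stage before it. Outside the units, Jhdm1d in 3 whole 16-cell embryos was at -1.80, within the range of the 8-cell stage, and at -2.92 and -2.85, within that of the 32-cell stage. Between the 8- and 16-cell stages it fell by 1.03 ± 0.34 (adjusted p = 0.0203), a change that did not pass without 1 of the 2 embryos of the 16-cell stage (adjusted p = 0.101 and 0.205). The later difference between 16- and 32-cell embryos, -0.92 ± 0.34, did not pass (adjusted p = 0.0694). From zygotes to 2-cell embryos, whose units ran from -0.60 over 1.13 to 1.93, it fell by 0.47 ± 0.19 (adjusted p = 0.0255), and by 0.042 (adjusted p = 0.881) when Hnrnpr was left out of the control genes. One unit, a pair of blastomeres, stood at -0.60 and the next at 0.82. Without it the difference was -0.23 and did not pass (adjusted p = 0.2), and that from 2- to 4-cell embryos went from -0.46 (adjusted p = 0.121) to -0.69 (adjusted p = 0.00611). The call from zygotes to 2-cell embryos was also lost without Ssu72 (adjusted p = 0.064), with every sample as a replicate (adjusted p = 0.333) and with the embryo as a random block (adjusted p = 0.363). Jhdm1d was detected in all samples up to the 16-cell stage and not in 2 of 50 samples of the 32-cell stage, both single cells of 1 embryo.

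Phf8, which acts on H3K9 and H4K20, dropped earlier. MII oocytes ranged from 1.47 over 2.57 to 2.70 and zygotes from 1.39 over 2.44 to 2.74. The 2-cell units ranged from -0.38 over 0.24 to 1.06, all below the zygotes, and the gene fell by 2.02 ± 0.27 (adjusted p = 3.62e-09). In 4-cell embryos the values ran from -0.99 over -0.76 to 0.19 and overlapped with the 2-cell stage. Between these stages it fell by 0.87 ± 0.33 (adjusted p = 0.0396), which was called in 9 of 17 alternative settings. The 8-cell embryos ranged from -2.64 over -2.30 to -0.88, and between the 4- and 8-cell stages it fell by 1.41 ± 0.34 (adjusted p = 0.000426). The 16-cell embryos had -2.03 and -1.56 and the 32-cell embryos ranged from -3.41 over -1.32 to -0.84. In the order of means, MII oocytes and zygotes stood apart from the 2-cell stage, and from there on each stage overlapped with the next within mean ± 1 SD. The lowest 32-cell embryo held the single sample, of 50, in which Phf8 was not detected.

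Phf2, the third KDM7 gene, had its lowest stage means in 4-, 8- and 16-cell embryos, where many samples gave no signal. MII oocytes ranged from -4.94 over -3.55 to -3.10 and zygotes from -4.64 over -3.73 to -2.24, with signal in every sample. The 4-cell embryos ranged from -12.77 over -9.16 to -4.36, the 8-cell embryos from -15.24 over -10.69 to -7.41 and the 16-cell embryos had -10.42 and -9.54. The 32-cell embryos ranged from -5.88 over -5.26 to -3.93 and lay above both 16-cell embryos. Between 16- and 32-cell embryos the difference was 4.96 ± 1.74, which did not pass the test (adjusted p = 0.0548). With every value below -10 set to -10 it was 3.22 (adjusted p = 0.0113), with the 6 whole late embryos added 3.48 (adjusted p = 0.0191), and with undetected values left out 2.13 (adjusted p = 0.0633). From zygotes to 2-cell embryos Phf2 fell by 2.83 ± 0.96 (adjusted p = 0.00787). The 2-cell units ran from -16.19 over -5.34 to -3.23, and the lowest was a whole embryo in which Phf2 was not detected. Without that embryo the difference was -1.44 (adjusted p = 0.0868). Without the same embryo the later difference between 2- and 4-cell embryos, -2.51 ± 1.17 (adjusted p = 0.0965), became -3.91 (adjusted p = 0.000667).

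The Phf2 levels of these stages thus rest in part on the limit of 30 cycles. Phf2 was not detected in 0 of 11 MII oocytes, 0 of 14 zygotes, 2 of 21 samples of the 2-cell stage and 0 of 7 of the 3-cell stage. It was not detected in 6 of 12, 18 of 27 and 13 of 26 samples of the 4-, 8- and 16-cell stage and in 8 of 50 samples of the 32-cell stage. The control genes gave a median Ct of 14.9, 15.4 and 16.0 in 4-, 8- and 16-cell embryos and of 17.7 in 32-cell embryos, where a higher Ct means less template, and its part in these counts was not tested. Among single blastomeres, Phf2 was not detected in 6 of 9, 18 of 24, 12 of 20 and 8 of 32 cells of the 4-, 8-, 16- and 32-cell stage. All 3 whole 4-cell and all 3 whole 8-cell embryos gave a signal, the latter at levels of -8.10, -8.02 and -7.41. Where blastomeres of the 8-cell stage gave a signal, the level was between -8.10 and -4.59 with the whole embryos included. All 8 blastomeres of 1 embryo lacked it.

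**Figure D3:**
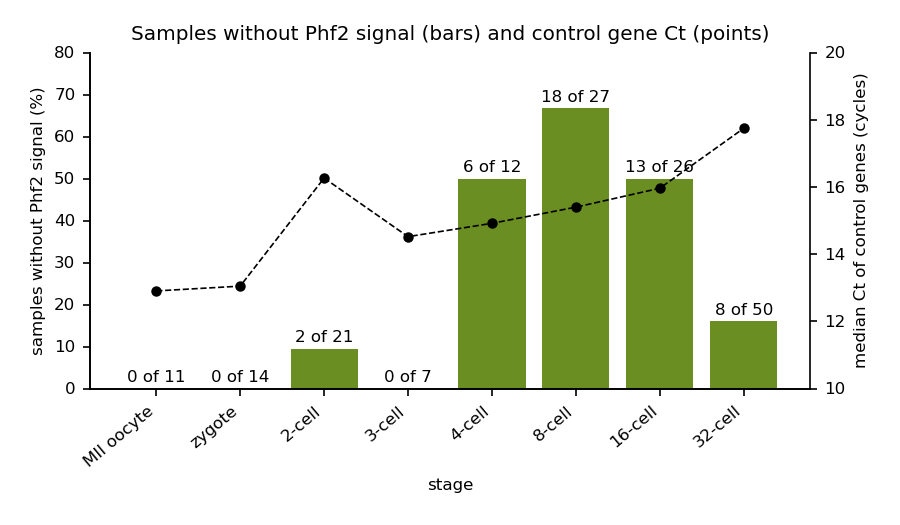
Share of samples without Phf2 signal by stage (bars, percent, left axis, with counts above) and median Ct of the 3 control genes (points, cycles, right axis, which does not start at 0). The share was highest, 18 of 27, in 8-cell embryos and was 8 of 50 in 32-cell embryos, beside a median control Ct of 15.4 and 17.7.

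Ct values of whole oocytes, zygotes and embryos are given next without normalization. They cannot separate the amount of transcript per embryo from differences in sample preparation or between chips. The median Ct of Jhdm1d was 11.09 in MII oocytes, 12.8 in 3 whole 2-cell, 13.5 in 3 whole 4-cell, 14.6 in 3 whole 8-cell, 13.09 in 3 whole 16-cell and 16.6 in 3 whole 32-cell embryos. Phf8 moved from 10.4 in MII oocytes and 10.6 in zygotes to 14.1 in 2-cell embryos and 14.7 in 32-cell embryos. Phf2 went from 16.5 in MII oocytes to 21.1 in 8-cell embryos and 17.5 in 32-cell embryos. Kdm2a kept a median between 12.3 and 13.4 in every group except the 16-cell embryos, at 10.3. Kdm2b had 11.2 in MII oocytes, 14.0 in 2-cell, 12.8 in 8-cell and 13.9 in 32-cell embryos. The control genes had a median of 12.9 in MII oocytes, 10.2 in the 16-cell and 12.5 in the 32-cell embryos, and in the 16-cell embryos they, Kdm2a and Kdm2b had their lowest median Ct of any group. No test was made on these values, and fewer cells with a transcript cannot be told apart from less transcript per cell in whole embryos.

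The 6 whole late embryos, which were not part of the units above, gave a different order for Kdm2a. Relative to the control genes it was at 0.20, -0.02 and -0.08 in the 3 whole 16-cell embryos and at -0.88, -0.88 and -0.74 in the 3 whole 32-cell embryos, all of the latter below every embryo mean of the 32-cell blastomeres. Kdm2b was at 0.77, 0.52 and 0.21 in whole 16-cell and at -0.55, -1.45 and -1.22 in whole 32-cell embryos. Jhdm1d was at -1.80, -2.92 and -2.85 and then at -3.57, -4.16 and -4.60. Phf2 was at -7.51, -8.37 and -6.89 and then at -5.06, -5.08 and -5.37, so the whole embryos of the 2 stages did not overlap and the later ones were higher. Phf8 was at -1.25, -1.90 and -1.60 and then at -2.80, -2.15 and -2.74.

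**Figure D4:**
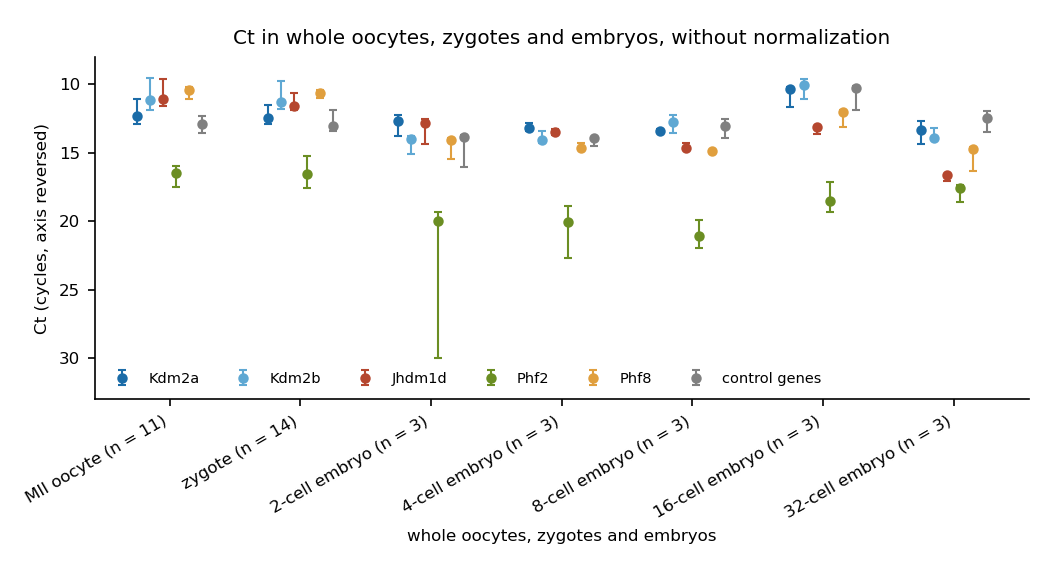
Ct (cycles, axis reversed so that a lower Ct stands higher) of the 5 genes and the control genes in whole oocytes, zygotes and embryos. Points are medians and bars the lowest and highest value. Jhdm1d moved from 11.09 in MII oocytes to 16.6 in 32-cell embryos, and the long bar of Phf2 at the 2-cell stage reaches the value of 30 of the embryo without signal.

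In dilutions of RNA from embryonic stem cells (ESC), which carry the pluripotent programme, the Ct changed by -1.04, -0.85, -0.85, -1.16 and -1.42 per doubling for Kdm2a, Kdm2b, Jhdm1d, Phf2 and Phf8 in a series of 25 to 200 pg, or 50 to 200 pg for Phf2. In a second series of 32 to 800 pg the change was -1.29, -1.03, -1.01, -0.63 and -1.16. A fully efficient assay changes by 1 cycle per doubling, and Phf2 and Phf8 were among those farthest from it. Phf2 was not detected in 1 of the 10 ESC samples, the one of 25 pg. In 3 repeats of 200 pg the level was 1.33 ± 0.15 (SD) for Kdm2a, 0.29 ± 0.20 for Kdm2b, -2.20 ± 0.17 for Jhdm1d, -4.57 ± 0.48 for Phf2 and -1.38 ± 0.09 for Phf8. These 5 means lay within the range over 50 samples of 32-cell embryos, which for Jhdm1d, Phf2 and Phf8 includes samples without signal. Against the embryo means of that stage, the means of these 3 repeats lay above the highest for Kdm2a, Kdm2b and Jhdm1d (0.59, -0.08 and -2.67). For Phf2 and Phf8 they lay within the range of the embryo means. In the second series, at 32, 160 and 800 pg, Kdm2a had -0.08, 0.62 and 0.67 and Kdm2b -0.02, -0.15 and -0.43. Kdm2a at 32 pg and Kdm2b at 160 and 800 pg thus lay within the range of the embryo means. Jhdm1d had -1.78, -1.98 and -2.29, all above it. No test was made between ESC RNA and embryos.

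Cells of the same embryo differed more than these repeats. Between single blastomeres of one 8-cell embryo the SD was 0.63 for Kdm2a, 0.64 for Kdm2b, 0.51 for Jhdm1d and 0.65 for Phf8, over 24 cells of 4 embryos. In 4-cell embryos, over 9 cells of 3 embryos, it was 0.28, 0.25, 0.36 and 0.37. In 16-cell embryos it was 0.96, 0.80, 1.11 and 1.07, over 20 cells of 2 embryos. For Phf2 it was 5.67, 3.78 and 4.20 in 4-, 8- and 16-cell embryos, where cells with and without signal stood side by side. The SD between embryo means was lower than that within embryos for all 5 genes at the 8-, 16- and 32-cell stage. A mean over several cells varies less than a single cell, so this order does not show that embryos differ less than their cells. At the 16-cell stage it rests on 2 embryos. The ESC repeats held more RNA than 1 blastomere, so they do not give the technical spread at the level of single cells.

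The late blastomeres were set against a lineage score, the mean of 12 core genes of the inner cell mass (ICM) minus the mean of 8 core genes of the trophectoderm, which runs from trophectoderm to ICM. It ranged from -7.11 to 7.74 over 26 samples of the 16-cell stage and from -8.71 to 10.12 over 50 of the 32-cell stage. A slope of each gene on the score was taken within each of 8 embryos with at least 4 samples and tested against 0 with limma over all retained genes. None of the 5 genes passed, 1 had an unadjusted p under 0.05, and 2.56% of all genes passed. That gene was Jhdm1d, with a slope of 0.16 ± 0.07 (SE, adjusted p = 0.354) that was positive in 7 of 8 embryos. The slope was -0.01 ± 0.04 for Kdm2a (adjusted p = 0.915), -0.04 ± 0.06 for Kdm2b (adjusted p = 0.742), 0.07 ± 0.08 for Phf2 (adjusted p = 0.706) and 0.19 ± 0.16 for Phf8 (adjusted p = 0.675). The 4 genes that passed, Pdgfra, Pecam1, Dppa1 and Tspan8, are core genes of the score, each left out of the score for its own test. Other core genes did not pass, among them Cdx2 (adjusted p = 0.978), Gata3 (0.675), Pou5f1 (0.675) and Sox2 (0.48). The test thus missed most core genes, and a gene that did not pass may still differ between the lineages. With every blastomere sample as a point and the embryo as a fixed block, the slope of Jhdm1d was 0.11 (adjusted p = 0.0226), in a setting that called 63 of the retained genes where the test over embryos called 4.

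**Figure D5:**
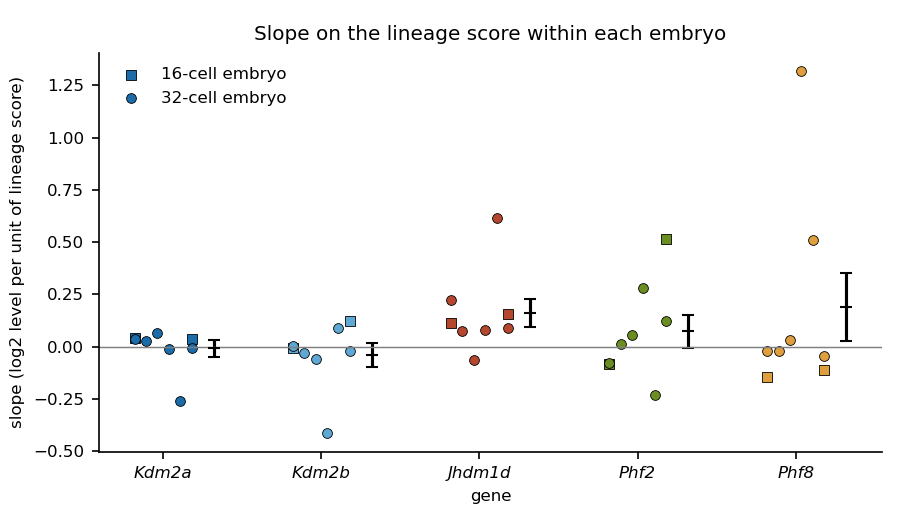
Slope of each gene on the lineage score within each embryo (log2 level per unit of score, above 0 when higher towards the ICM). Squares are the 2 embryos of the 16-cell and circles the 6 of the 32-cell stage, and black marks give the mean and SE of the limma fit. Jhdm1d is above 0 in 7 of 8 embryos, and the highest point of Phf8, 1.32, is the 32-cell embryo with 1 sample without Phf8 signal.

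Single embryos show what lies behind these means. The slopes of Jhdm1d were 0.11 and 0.16 in the 2 embryos of the 16-cell stage and ran from -0.06 to 0.62 in the 6 of the 32-cell stage. Those of Phf2 were -0.08 and 0.51 at the 16-cell stage, where it was not detected in 7 and 6 of 13 samples, and ran from -0.23 to 0.28 at the 32-cell stage. For Phf8 they were -0.14 and -0.11 at the 16-cell stage and between -0.05 and 1.32 at the 32-cell stage. Pooled over the 76 samples, which share embryos and stage, Spearman's rho with the score was 0.42 for Phf2, 0.35 for Kdm2a, 0.23 for Jhdm1d, -0.10 for Phf8 and -0.30 for Kdm2b. Over the 50 samples of the 32-cell stage alone it was 0.24, 0.13, 0.30, -0.13 and -0.33, and over the 26 of the 16-cell stage 0.39, 0.14, 0.60, -0.41 and 0.28, so the sign for Kdm2b differed between these stages. The level of the control genes had a rho of -0.43 with Kdm2a, -0.27 with Phf2 and 0.29 with Kdm2b over the 76 samples, and its part in these values was not tested. In 1 isolated group of ICM cells and 1 of trophectoderm cells, the levels were -0.48 and -1.18 for Kdm2a, 0.14 and -0.78 for Kdm2b, -3.38 and -3.31 for Jhdm1d, -4.62 and -5.36 for Phf2, and -1.26 and -1.46 for Phf8. All differences but that of Jhdm1d ran towards the ICM group, with 1 sample on each side and no test.

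Over the 58 unit means, the genes most like Phf8 by Spearman's rho were Whsc1 (0.93), a methyltransferase of H3K36, Sfmbt1 (0.92) and Suv39h2 (0.92), a methyltransferase of H3K9. Those most like Jhdm1d were Bmi1 (0.92), a Polycomb gene, Brdt (0.92) and Kdm1b (0.91), an H3K4 demethylase. Phf2 was most like Nsd1 (0.89), Scmh1 (0.87) and Satb1 (0.83), Kdm2b most like Dppa3 (0.83), ASF1A (0.80) and Eed (0.80), and Kdm2a most like DEK (0.75), Ctcf (0.73) and Ezh1 (0.64). Among the 5 genes themselves rho was 0.83 between Jhdm1d and Phf8, 0.76 between Phf2 and Phf8 and 0.25 between Kdm2a and Kdm2b. Within embryos of the 16- and 32-cell stage, over 76 samples centred per embryo, the rho of Jhdm1d and Phf8 was -0.26. These units share stages and control genes, and the values are a description.

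Other genes listed as histone demethylases, among them enzymes of H3K4, and the methyltransferases listed below moved in both directions from MII oocytes to 16- and 32-cell embryos. The first list takes in Jmjd4, Jmjd5, Jmjd6, Jmjd8 and 2410016O06Rik, whose activity on histones was not examined here. Of its 19 genes 9 rose, 7 fell and 3 did not pass, with a median difference of 0.54 beside -0.35 over all genes. These counts are relative to the control genes, and in the log2 table of the authors there were 20 genes higher and 114 lower instead of 59 and 72. Kdm1b fell by 7.41 ± 0.32 (adjusted p = 4.32e-28). 2410016O06Rik was not detected in 6 of 11 MII oocytes and 9 of 76 late samples, so its difference depends on the limit of 30 cycles, and it rose by 6.88 with values below -10 set to -10 (adjusted p = 1.86e-17). The Y-linked H3K4 demethylase Kdm5d, counted among the 9, was not detected in 10 of 11 MII oocytes and 65 of 76 late samples, and with that floor its difference of 2.16 did not pass (adjusted p = 0.102). Of the 5 methyltransferases of H3K36, the mark that KDM2 proteins remove, 4 fell and none rose, with a median of -1.16, and Whsc1 fell by 3.397 ± 0.25 (adjusted p = 7.74e-18). Of the 5 methyltransferases of H3K9, 2 rose and 3 fell. Suv39h1 was not detected in 5 of 11 MII oocytes and 5 of 76 late samples and rose by 5.23 with the same floor (adjusted p = 2.95e-12). Its paralogue Suv39h2 fell by 6.99 ± 0.39 (adjusted p = 6.46e-23). Both H3K27 methyltransferases fell, Ezh2 by 2.18 ± 0.15 (adjusted p = 9.49e-20) and Ezh1 by 1.92 ± 0.21 (adjusted p = 4.22e-12). Of the 3 methyltransferases of H4K20, a residue on which PHF8 acts, 2 rose, Suv420h1 and Suv420h2, and 1 did not pass. Suv420h1 was higher by 2.46 ± 0.29 (adjusted p = 7.87e-11), a direction that turned to -1.10 in the deposited table and -1.84 without normalization. Suv420h2 was higher by 2.00 ± 0.81 (adjusted p = 0.0202), which turned to -1.56 and -2.30 in the same 2 settings. It was not detected in 14 of 76 late samples.

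The Polycomb partners of KDM2B split. Pcgf1, the subunit that defines the KDM2B complex, went from 5.16 to -2.11 and so fell by 7.28 ± 0.29 (adjusted p = 2.53e-29). Rnf2, a catalytic RING subunit, fell by 1.46 ± 0.21 (adjusted p = 1.4e-08), and its paralogue Ring1 rose by 4.07 ± 0.96 (adjusted p = 0.000131), though its difference was -0.23 without normalization. From zygotes to 2-cell embryos, where Kdm2b itself fell, 1 of the 3 fell and none rose.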

How the data were processed

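The authors measured 192 assays in 189 samples with EvaGreen qPCR on BioMark microfluidic chips after preamplification of cell lysates. They deposited a table of Ct values, a score in PCR cycles with undetected genes at 30, and a second table of log2 values, which are 30 minus the Ct relative to Gapdh, Hspa8 and Lmnb1. The methods name Hnrnpr, Ssu72 and Ube2e1 instead, so levels were computed here from the Ct with those genes, and the deposited log2 table served as an alternative. The 36 assays marked as failed, and 3 samples of the main stages that the study left out, were not used. The assignment of samples to chips is not given in the sources used here.

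Stages, embryos and cell numbers came from the sample labels. The labels of the 26 samples of the 16-cell stage are ambiguous, since some number their blastomeres above 16. Means over the 58 units were compared with limma 3.58.1 (lmFit and eBayes, all stages in one fit) in R 4.3.3, with Benjamini-Hochberg adjustment over 156 genes and a threshold of 0.05. For the late comparison the 16- and 32-cell embryos formed 1 group. Differences between 2 genes were tested over all 12090 pairs. Descriptions used Python 3.11.15 with pandas 2.3.3 and numpy 2.4.6. The fits were tested on simulated data. qPCR gives no read depth, so the Ct of the control genes stands for the template in a sample.

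The 5 genes and all gene lists were chosen with earlier results of these data known. Named were the 5 genes, for each the 3 genes of highest Spearman rho over the units without the control genes, and of each list up to 3 genes with the largest late difference past the threshold. Alternatives changed the control genes, undetected values, samples and unit, and each of the 2 embryos of the 16-cell stage and each late embryo of the lineage test was left out in turn. 5 further alternatives were chosen after seeing the data, 3 that leave out 1 unit of the 2-cell stage each and 2 that leave out 1 embryo of the 16-cell stage from the fits of pairs.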

Additional observations from a re-analysis of the deposited data

Results flagged for a closer look

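Of 25 groups of 6 to 8 embryos examined, 5 held a value far from the others, where chance alone flags about 1 in 20. In Kdm2b, 1 whole 4-cell embryo had a level of 1.08, with the next highest at -0.13. In Jhdm1d, 1 unit of the 2-cell stage (a pair of blastomeres) had -0.60, with the next lowest at 0.82. In Phf2, 1 whole 2-cell embryo had -16.19, a value set by the absence of signal, with the next lowest at -7.08. Among slopes on the lineage score in 32-cell embryos, 1 embryo with 5 samples had -0.26 for Kdm2a, with the next lowest at -0.01, and its score had an SD of 0.91. Another embryo with 5 samples had -0.41 for Kdm2b, with the next lowest at -0.06. The causes were not tested.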

How the results depend on the processing

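The counts of the 5 genes and of their pairs past the limma threshold were set against 133 recomputed counts, of which 102 stayed within 1.5 times the first. From zygotes to 2-cell embryos the count of genes went from 4 to 2 with every sample as a replicate and to 2 with the embryo as a random block. From 2-cell to 4-cell embryos it went from 1 to 0 without Ube2e1, 0 with each sample set to its median, 0 with the 3 omitted samples and 0 without the 2-cell unit merged from 3 samples, and to 3 in the deposited log2 table, 2 with a floor at -10, 2 without the 2-cell embryo that lacks Phf2 signal and 2 without the 2-cell unit of lowest Jhdm1d level. From 4-cell to 8-cell embryos it went from 3 to 1 with no normalization. From 8-cell to 16-cell embryos it went from 1 to 0 without Hnrnpr, 0 with a random block and 4 in the deposited table, and was 0 to 0 without 1 embryo of the 16-cell stage. From 16-cell to 32-cell embryos it went from 0 to 2 without Ssu72, 1 without Ube2e1, 2 with no normalization, 2 with the sample median, 2 in the deposited table, 1 with a floor at -10, 2 with the omitted samples, 3 with whole late embryos, 1 in single cells, 4 with every sample as a replicate and 3 with a random block. From MII oocytes to late embryos it went from 5 to 3 without Ssu72 and was 3 to 3 without 1 embryo of the 16-cell stage. No gene of the 5 passed the lineage test but Jhdm1d, 1 gene, with every blastomere as a point.

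Directions turned in 7 results. Of these, Phf8, at 0.42 from 2-cell to 4-cell embryos with no normalization, and Kdm2a, at 0.036 from MII oocytes to late embryos without Ssu72, which shifted the median of all genes by 0.48, were called in the test as reported and not under that alternative. The rest were called under the alternative alone. With no normalization Kdm2a was at -2.84 from zygotes to 2-cell embryos. In the deposited table Kdm2a was at -1.77, Kdm2b at -1.85 and Phf8 at -1.64 from 8-cell to 16-cell embryos, where that scaling shifted the median of all genes by -1.88. Phf2 minus Phf8 was at 0.89 from zygotes to 2-cell embryos without undetected values. A further 64 of 757 values turned sign without a call in either setting.

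The replicate block over MII oocytes and zygotes with equal numbers left 0 of the 5 genes called, and 12 of all genes against 3 without it. The labels give no shared source for these numbers, and the correlation of deviations over 11 pairs had a median of -0.12. Calls over all genes moved by more than 1.5 times in these settings. From MII oocytes to zygotes they went from 3 to 6 without Hnrnpr, 0 with no normalization, 5 with the sample median, 8 without undetected values and 0 with the omitted samples, from 2-cell to 4-cell embryos from 51 to 32 in single cells, and from 4-cell to 8-cell embryos from 77 to 42 with no normalization. From 8-cell to 16-cell embryos they went from 44 to 16 with no normalization, 79 in the deposited table, 78 with every sample and 18 to 19 without either embryo of the 16-cell stage. From 16-cell to 32-cell embryos they went from 17 to 27 without Ssu72, 52 with no normalization, 26 with the sample median, 43 in the deposited table, 43 with whole embryos, 75 with every sample, 49 with a random block and 6 to 10 without either embryo of the 16-cell stage. In the lineage test they went from 4 to 10 with ICM genes alone, 63 with every blastomere as a point, 1 with embryos of at least 3 samples, 0 with trophectoderm genes alone, no normalization, single cells or 32-cell embryos alone, and 2 to 13 without 1 embryo. Scaling also moved the split of calls. Genes higher and lower from 8-cell to 16-cell embryos were 31 and 13, 3 and 76 in the deposited table and 18 and 19 with the sample median, and from zygotes to 2-cell embryos 46 and 61, 60 and 47 without Hnrnpr and 22 and 115 with no normalization. Every comparison with the 16-cell stage rests on 2 embryos. The causes of these changes were not tested.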
